A study of Mus musculus with 17 samples.

Results

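Skin Cd209a Mgl2 dendritic cells were described here as cells that carry the RNA of class II antigen presentation and of the lectins Cd209a and Mgl2, and little or no RNA that marks other myeloid cells. They were chosen in 8 skin libraries made by a 10x droplet method that reads the 3′ ends of RNA in single cells, in which each transcript molecule is counted once by its unique molecular identifier (UMI). A cell was a member with at least 200 genes, at most 20% mitochondrial UMIs, at least 20 UMIs of H2-Ab1, at least 2 UMIs of Cd209a and Mgl2 together, at most 1 UMI of C1qa, C1qb and C1qc together, no UMI of Xcr1, Clec9a or Ccr7, at most 2 UMIs of Mmp12 and Ear2 together and at most 1 UMI of Chil3. The rule found 1495 members among 30085 skin cells that passed the first 2 limits (31972 skin barcodes and 107534 barcodes in the series). These UMIs chose the cells, so levels of the rule's genes are a description and support nothing.

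The libraries came from back skin of mice that all carried PDGFRb-Cre and the Z/EG reporter, which turns on GFP where Cre has acted. Their labelled age of 8 weeks is the age at which the paper entered mice into experiments. SARATg mice also carried human ZFYVE9, the gene of the endosomal TGF-β adaptor SARA, behind a stop cassette that Cre removes, and SARAWT mice did not. PBS or bleomycin (20 mg/kg) was injected under the skin over 2 weeks. By the paper's methods mice were killed 1 week after the last bleomycin injection, and PDGFR-β+GFP+ cells were sorted. There were 3 SARAWT PBS, 3 SARAWT bleomycin, 1 SARATg PBS and 1 SARATg bleomycin libraries, and nothing in the labels says whether a library came from 1 animal or a pool, so p-values measure only the spread between these libraries. Leukocytes of the embryo use the PDGFR-β promoter too, so GFP can mark an earlier Cre event rather than PDGFR-β in the adult cell. In members Pdgfrb itself was between 0 and 8.67 CPM (UMIs of the gene per 1000000 UMIs summed over the members of a library).

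Dendritic cells take up antigen in tissues, carry it to lymph nodes and show it to T cells on class II molecules. Conventional dendritic cells depend on the receptor Flt3 and fall into type 1, marked by Xcr1, Clec9a and the factor Irf8, and type 2, marked by Sirpa and the factor Irf4. In mouse dermis a part of the type 2 cells carries the C-type lectins Cd209a (a DC-SIGN homolog) and Mgl2 (CD301b), which bind sugars on microbes and allergens, and such cells are known for priming type 2 helper T cells. Monocytes that enter inflamed skin can take on class II and Cd209a too, which is why Ly6c2, Plac8 and Fcgr1, carried by monocytes and cells newly derived from them, are given beside the members throughout.

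Several facts of the libraries touch the results. Total UMIs ran from 3355217 to 69765525 per library, members numbered 34 to 545 and had a median of 5602 to 13740.5 UMIs, and 3 UMIs in the members of a library correspond to 0.466 to 10.9 CPM. Zfyve9 reached 525 CPM in members of the library labelled SARAWT PBS 3 and 259 and 233 CPM in the SARATg libraries, against 0 to 19.0 CPM in the other 5. A separate human ZFYVE9 entry, present only in the longer gene list, held 82.3 to 741 CPM in members of SARAWT PBS 1 and 2 and SARAWT bleomycin 1 and 2. Such UMIs are not what the genotype label of these 4 libraries and of SARAWT PBS 3 would give. The gene list of the SARATg libraries lacks the human entry, so it has no transgenic reference. The source of these UMIs was not tested, and library names below are only those of the labels. Genotype enters as labelled in the fit over 8 libraries and in the permutation within genotype, and calls without that term and without SARAWT PBS 3 are given as well. Barcodes seen in another skin library made up 50.0% of members of SARAWT PBS 2 and 25.5% of SARAWT bleomycin 2, and at most 5.00% elsewhere. The 4 libraries made with the longer gene list (SARAWT 1 and 2 of both treatments) also differ from the other 4 in sex-linked genes, with Xist at 351 to 856 CPM against at most 0.510 CPM, so gene list, sex and any shared handling cannot be told apart. UMIs of T-cell, collagen, keratin or mast-cell genes were present in 5.88% to 88.6% of members.

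The label was checked against markers of the cell types that could be present. Flt3, the receptor of the conventional lineage, was found in all 8 libraries at 83.0 to 443 CPM, and Zbtb46, a factor of conventional dendritic cells, at 25.8 to 61.9 CPM. Itgax, the CD11c gene and one of the markers given for these cells, was low: it was between 1.58 and 42.3 CPM, and in cells thinned at random to 3000 UMIs 6.62% of members had a UMI of it (mean over libraries), against 0.925% of T cells. Thinned shares were 70.6% for Cd209a and 81.4% for Mgl2, against 0.788% and 0.469% of T cells (median depths 6122 to 8650 UMIs in T cells and 5572 to 13653 in members). Cd209a and Mgl2 chose the members, so these shares follow from the rule and support nothing. T cells here were kept cells with at least 2 UMIs of Cd3e and at most 2 of H2-Ab1, so they were picked by their UMIs too. Of single markers of other leukocytes, Ms4a1, a B-cell gene, had no UMI and Cd3e was at most 2.35 CPM, but 8 T-cell genes summed to 3.86 to 161 CPM. Cd79a, another B-cell gene, had a UMI in 0.392% of members on average, against 0.377% of T cells. Macrophage markers were uneven, with Folr2 at a mean of 2.58 CPM but Cd163, a scavenger receptor, at 189 to 339 CPM after PBS and 44.4 to 96.8 after bleomycin, with a UMI in 44.7% of members on average against 0.239% of T cells, and 10 macrophage genes summed to 201 to 412 CPM. Other lineages were not absent, since 10 stromal genes summed to 315 to 3992 CPM, 10 keratinocyte genes to 4.33 to 777 CPM and 8 neutrophil genes to 122 to 884 CPM in members. Members with 20 to 25 H2-Ab1 UMIs numbered 2 to 10 per library, and cells with 15 to 19 that met every other limit numbered 3 to 11. Members with just 2 UMIs of Cd209a and Mgl2 numbered 2 to 14 per library, against 2 to 29 cells with 1, and the medians were 118 to 184 UMIs for H2-Ab1 and 12 to 23 for Cd209a and Mgl2.

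A further 3 classes of class II cells from the same libraries showed where the members stood, each with at least 20 H2-Ab1 UMIs. They were 451 Xcr1 Clec9a dendritic cells (7 libraries with at least 10 cells), 2942 C1q macrophages and 2116 Ccr7 dendritic cells, the last being the mature, migrating state. All classes were picked by UMIs in the very cells compared, so these differences describe the classes and no test is read from them. Class means below are over the libraries, with SD, in CPM.

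Factors and receptors that divide the dendritic lineage differed between members and Xcr1 Clec9a cells, 2 classes chosen apart by their Xcr1 and Clec9a UMIs. The type 2 marker Sirpa was higher in C1q macrophages than in members. Irf4 stood at 106 ± 40.9 CPM in members and 2.11 ± 2.53 in Xcr1 Clec9a cells, and Irf8 at 50.2 ± 42.1 against 1205 ± 154. Sirpa, which gives an inhibitory signal to phagocytes, was at 177 ± 42.3 CPM in members, 2.10 ± 0.906 in Xcr1 Clec9a cells and 447 ± 72.5 in C1q macrophages. Flt3 was 202 ± 111 CPM in members, 140 ± 15.6 in Xcr1 Clec9a cells, 106 ± 49.8 in Ccr7 cells and 4.29 ± 3.995 in C1q macrophages, so members and Xcr1 Clec9a cells overlapped and macrophages had the lowest mean. The order was reversed for Csf1r, the macrophage growth factor receptor, with 113 ± 31.6 CPM in members and 512 ± 70.0 in C1q macrophages. Apoe, which carries lipid, was 510 ± 101 CPM in members, 8858 ± 3602 in C1q macrophages and 90.1 ± 21.1 in Ccr7 cells.

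Some genes with no place in the rule had higher means in members than in any of the 3 other classes. Cells past the minimum for H2-Ab1 and for Cd209a and Mgl2 but over the Mmp12 and Ear2 limit were not compared as a class. They numbered 614 in SARAWT PBS 3, which held 125 members. Apod, a lipid-binding lipocalin, was at 1074 ± 378 CPM in members against 5.71 ± 5.92 in Xcr1 Clec9a cells, 58.1 ± 80.9 in C1q macrophages and 243 ± 109 in Ccr7 cells. Rbp4, the retinol carrier, was at 133 ± 65.5 CPM against 0.129 ± 0.341, 2.76 ± 4.33 and 34.3 ± 38.1 in the same order. Ngfr, the low-affinity neurotrophin receptor, was at 89.8 ± 26.2 CPM against 0.531 ± 0.512, 1.85 ± 2.03 and 24.7 ± 10.6. Cd7, a lymphocyte surface protein of the immunoglobulin family, was at 237 ± 80.9 CPM against 0.919 ± 0.618, 2.71 ± 2.395 and 91.2 ± 38.8. In all 4 genes the Ccr7 cells came second. Cd209e, a lectin encoded beside Cd209a, was at 727 ± 418 CPM in members, 222 ± 80.3 in Ccr7 cells and 44.3 ± 39.6 in C1q macrophages. Trbc1, a T-cell receptor constant gene, was at 173 ± 105 CPM in members and 34.2 ± 40.6 in Ccr7 cells, while Cd3e was 0.513 ± 0.829 CPM in members.

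**Figure D1:**
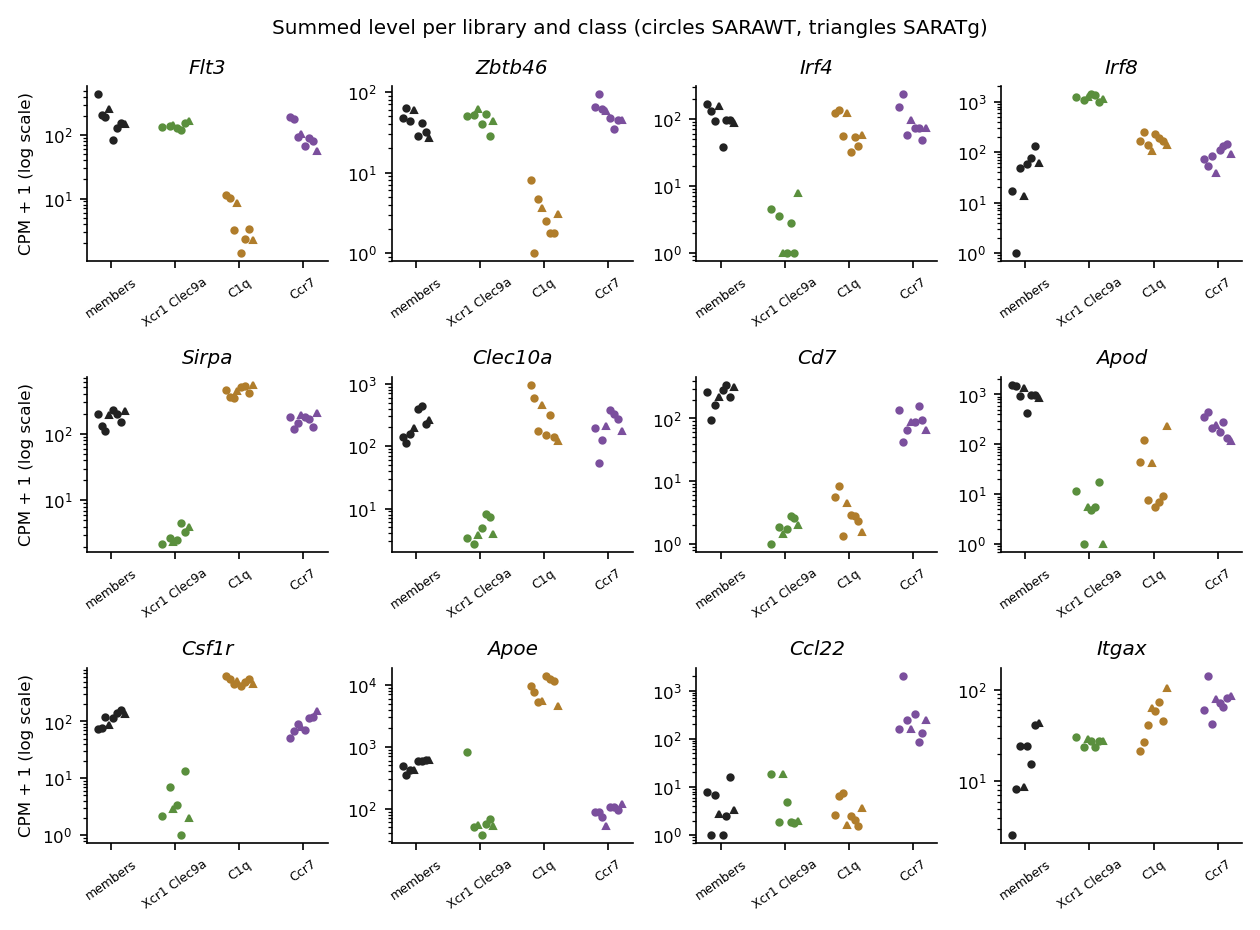
Level of 12 genes (CPM plus 1, log scale) summed over the cells of each class, 1 point per library, with circles for SARAWT and triangles for SARATg. Members share Flt3 and Zbtb46 with the other dendritic classes and Irf4 and Sirpa with C1q macrophages and Ccr7 cells, and stand highest for Cd7 and Apod.

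The genes that differed most between members and each class are given next as a description. Against Xcr1 Clec9a cells the largest log2 differences to the low side by the fixed rule were Gcsam (-7.92), Cd207 (-7.45), Dgkk (-6.99), Snx22 (-6.93), Notch4 (-6.82), Itgae (-6.59), Cxcr3 (-5.80) and Ifi205 (-5.44). Cd207 is langerin and Itgae is CD103, both known from dermal type 1 cells. To the high side, beside Cd209e (10.26) and Rbp4 (9.24), stood Cd209d (8.398), and Marco, Fcna, Scn3a, Alox5 and Cx3cr1, which had no UMI in any Xcr1 Clec9a library and were at 103 ± 62.8, 77.5 ± 27.9, 32.7 ± 16.8, 26.3 ± 13.6 and 24.5 ± 8.49 CPM in members.

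Against C1q macrophages the low side held chemokines and resident macrophage genes. Ccl8 was 38.5 ± 36.0 CPM in members and 5514 ± 3138 in C1q macrophages, Pf4 10.8 ± 17.8 against 1388 ± 815, Cbr2 1.39 ± 1.77 against 361 ± 214 and Folr2 2.58 ± 3.098 against 207 ± 158. Cxcl13, without a UMI in members, was 54.8 ± 84.5 CPM in C1q macrophages, and Ccl24, Chp2 and Cd209f had means of 0.229, 0.0329 and 0.784 CPM in members against 67.9 ± 77.3, 28.3 ± 27.7 and 108 ± 181 CPM. On the high side were Spib (log2 difference 7.74; 3.86 to 139 CPM over libraries in members, but 0.774 to 8.55 in those with neither a monocyte-gene UMI nor one of Siglech or Ccr9), Cd7 (6.98), Rbp4 (6.31), Klrd1 (6.14), Tmem108 (6.06), Flt3 (5.98), Adam23 (5.96) and Sept3 (5.76).

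Against Ccr7 cells, genes of maturation were lower in members, which by the rule held no Ccr7 UMI. The Ccr7 class required at least 2 Ccr7 UMIs and at most 1 C1q UMI and set no limit on Xcr1 or Clec9a. Of 11 mature dendritic cell genes 10 were lower and 0 higher in members, and of 8 type 1 genes 7 were lower and 0 higher. Among all genes 12.3% were lower and 11.1% higher (edgeR, adjusted p under 0.05). Ccl22, a chemokine that draws Ccr4-bearing T cells, was 4.11 ± 4.99 CPM in members and 420 ± 647 in Ccr7 cells. Fscn1, the actin bundler of mature dendritic cells, was 23.3 ± 15.7 against 209 ± 164 CPM, Il4i1 14.9 ± 6.91 against 78.8 ± 40.0 and Ly75, the uptake receptor DEC-205, 1.80 ± 1.05 against 23.1 ± 10.0. Ccl5, Cacnb3, Alox15, H2-M2 and Hand1 were at log2 differences of -4.14, -4.13, -4.27, -3.83 and -3.66, and Apol7c had no UMI in members. Higher in members by log2 differences of 2.91 to 2.19 were Ina, Trbc1, Marco, Camk2n1, Stard13, Apoe, Rbp4 and Ptprf. Il1b, the inflammatory cytokine, was abundant in both classes, at 3208 ± 999 CPM in members and 4459 ± 883 in Ccr7 cells.

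By lists, of 14 type 2 dendritic cell genes tested against Xcr1 Clec9a cells, 11 were higher and 2 lower in members at an adjusted p of 0.05 (edgeR, library as block; 23.2% and 21.8% of all genes tested), with a median log2 difference of 4.02 against 0.01 over all genes. The same list had 2 higher and 8 lower against C1q macrophages (median -0.67), and 3 higher and 3 lower against Ccr7 cells (median 0.09). Of 10 genes listed for class II presentation, Cd52 among them, against C1q macrophages, 8 were higher and 1 lower (18.6% and 21.8% of all genes), with a median of 0.67 against 0.00, and Cd74, the invariant chain, was 39810 ± 8814 against 19170 ± 2447 CPM. Of 16 lipid and lysosome genes against C1q macrophages, 15 were lower and 0 higher in members, with a median of -2.75. Of 12 NF-κB feedback genes against Ccr7 cells, 11 were lower and 0 higher in members (12.3% and 11.1% of all genes), with a median of -0.65 against 0.01. These counts rest on classes picked in the same cells and nothing is read from them.

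Members, as the rule chose them, were a smaller part of the sorted skin cells in each bleomycin library than in any PBS library. They made up 10.99%, 4.35% and 2.70% of kept cells in SARAWT PBS 1 to 3 (95% exact binomial intervals 10.05 to 11.99, 3.03 to 6.03 and 2.249 to 3.204, which cover counting error only) and 11.96% in SARATg PBS (11.03 to 12.94). After bleomycin they made up 1.86%, 2.35% and 2.26% in SARAWT 1 to 3 (1.33 to 2.52, 1.76 to 3.08 and 1.91 to 2.65) and 2.01% in SARATg (1.65 to 2.43). The groups did not overlap, and the nearest libraries were SARAWT PBS 3 and SARAWT bleomycin 2, whose intervals did overlap. The SARAWT means were 6.01 ± 4.39% and 2.16 ± 0.264% (SD, n = 3), a difference of -3.86 points, with a two-sided exact permutation p of 0.1, the smallest that 3 against 3 allows. Over all 8 libraries, with treatment permuted within genotype, the means were 7.50% and 2.12% and the exact p 0.05, again the smallest possible. The direction was the same within each gene list, at 4.35% to 10.99% against 1.86% to 2.35% with the longer list and 2.70% to 11.96% against 2.01% to 2.26% with the shorter.

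The size of the difference moved with depth, with the rule's limits and with the denominator, which the sort also sets. With wider limits on the excluded genes the SARAWT means were 7.525% and 3.69%. Of cells past the H2-Ab1 and the Cd209a and Mgl2 minimum, 12.5%, 8.82%, 48.0% and 21.7% held a Ccr7 UMI after PBS. After bleomycin these were 42.0%, 33.2%, 47.4% and 41.4% (SARAWT 1 to 3, then SARATg). The parts over the C1q limit and over the Mmp12 and Ear2 limit overlapped as well. The part over the Chil3 limit was at most 0.478% after PBS and at least 1.305% after bleomycin. The Cd209a and Mgl2 minimum removed 174 of 1591, 35 of 171, 428 of 1558 and 255 of 1929 cells with enough H2-Ab1 after PBS. After bleomycin it removed 519 of 902, 350 of 817, 979 of 2025 and 635 of 1957. This was a larger part in each bleomycin library than in any PBS library. The part of this minimum and of these limits in the lower share was not tested. With cells thinned to 2000 UMIs the SARAWT means were 10.2% and 4.34% and 1 PBS library fell below a bleomycin library (exact permutation p = 0.2). With the H2-Ab1 limit at 10 UMIs they were 6.61% and 2.78%, SARAWT PBS 3 (2.83%) fell below SARAWT bleomycin 2 (3.23%) and the exact permutation p was 0.2. Among cells with a Ptprc (CD45) UMI the means were 10.8% and 2.98%, so the direction was the same among leukocytes. Without SARAWT PBS 1 the difference was -1.37 points, the smallest of those with 1 library left out, and without SARAWT PBS 3 it was -5.52.

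**Figure D2:**
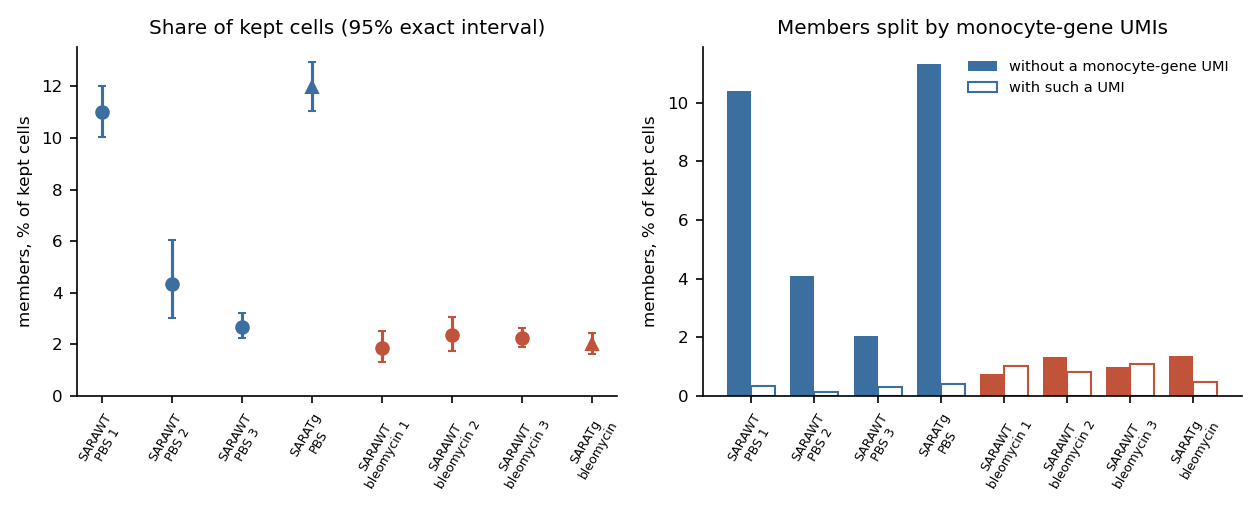
Left, members as a percent of kept cells in each library with 95% exact binomial intervals; right, the same percent split into members without (filled bars) and with (open bars) a UMI of Ly6c2, Plac8 or Fcgr1, leaving out members with Siglech or Ccr9 UMIs. The filled bars are lower and the open bars higher in all 4 bleomycin libraries than in any PBS library.

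Members were split, after their values were seen, by whether they held any UMI of Ly6c2, Plac8 or Fcgr1, after setting aside 65 members with UMIs of Siglech or Ccr9, genes of plasmacytoid cells. All 3 genes of the split lay above in all 4 bleomycin libraries in the members as a whole, so a higher share of members with such a UMI after bleomycin follows from how the genes were chosen and is a description. Members with such a monocyte-gene UMI numbered 184 of 1495 and members without one 1246. With the 65 set aside counted in, 1270 members held no Ly6c2, Plac8 or Fcgr1 UMI, so some of the 65 held one too. Those with one made up 3.12%, 2.94% and 11.2% of the members in SARAWT PBS 1 to 3 and 3.49% in SARATg PBS, but 55.0%, 35.3% and 48.0% in SARAWT bleomycin 1 to 3 and 24.0% in SARATg bleomycin. The 2 treatments did not overlap, and SARAWT PBS 3 was the highest PBS library. Cells thinned to 3000 UMIs, which leaves out members below that depth, gave 0% to 10.0% with such a UMI in PBS libraries and 21.1% to 61.3% in bleomycin libraries. In SARAWT bleomycin 1, 31 of 40 members were left, and its members without such a UMI had a median of 2989 UMIs before thinning. The part of depth in this split was not tested. T cells of the same libraries, thinned likewise, had a Ly6c2 UMI in 4.90% and a Plac8 UMI in 4.41% of cells on average.

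As parts of all kept cells, members with a monocyte-gene UMI were 0.344%, 0.128% and 0.302% in SARAWT PBS, 0.417% in SARATg PBS, 1.02%, 0.830% and 1.08% in SARAWT bleomycin and 0.484% in SARATg bleomycin. Members without one were 10.4%, 4.10% and 2.05% in SARAWT PBS and 11.3% in SARATg PBS, against 0.743%, 1.34% and 0.977% in SARAWT bleomycin and 1.35% in SARATg bleomycin. The gap was narrow for members with a monocyte-gene UMI in the SARATg libraries, with 19 cells after PBS and 25 after bleomycin. These shares are given with no test.

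Named genes are compared between members with and without such a UMI as a description. In the 7 libraries with at least 10 cells of both, Flt3 was at 111 ± 122 CPM in members with a monocyte-gene UMI and 241 ± 101 in those without, and was lower in 7 of 7 libraries. Mgl2 was at 687 ± 208 against 1440 ± 288 CPM (lower in 7 of 7), while Cd209a, the other lectin of the rule, was at 734 ± 288 against 702 ± 171 CPM and higher in 3 of 7. H2-Ab1 was at 9858 ± 1274 against 15950 ± 1598 CPM and Cd74 at 25510 ± 4885 against 45860 ± 5103 CPM, both lower in 7 of 7. Genes named above as higher in members than in compared classes were carried mostly by the members without a monocyte-gene UMI. Apod stood at 282 ± 258 against 1474 ± 332 CPM, Rbp4 at 21.1 ± 26.1 against 183 ± 69.5, Marco at 12.7 ± 12.9 against 153 ± 83.8 and Cd209e at 231 ± 255 against 985 ± 343, each lower in 7 of 7.

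Other genes were higher in members with a monocyte-gene UMI. Ccr2, the chemokine receptor by which monocytes leave the blood, was at 283 ± 93.0 CPM in members with a monocyte-gene UMI and 100 ± 49.1 in those without, and Cd14, the lipopolysaccharide co-receptor, at 1201 ± 694 against 336 ± 190, each higher in 7 of 7. Isg15, an interferon-induced ubiquitin-like protein, was at 195 ± 152 against 18.1 ± 13.4 CPM (higher in 7 of 7). Ctsl, the protease cathepsin L, was at 216 ± 211 against 29.6 ± 8.57 CPM (6 of 7). Sirpa (208 ± 61.9 against 181 ± 53.3 CPM) and Il1b (3427 ± 1191 against 3128 ± 1389 CPM) were each higher in 4 of 7 libraries, so their direction was not shared. Median UMIs per cell were higher in the members with such a UMI in 6 of these 7 libraries, most in SARAWT bleomycin 1 (15417.5 against 2989), and the part of depth in these levels was not tested.

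**Figure D3:**
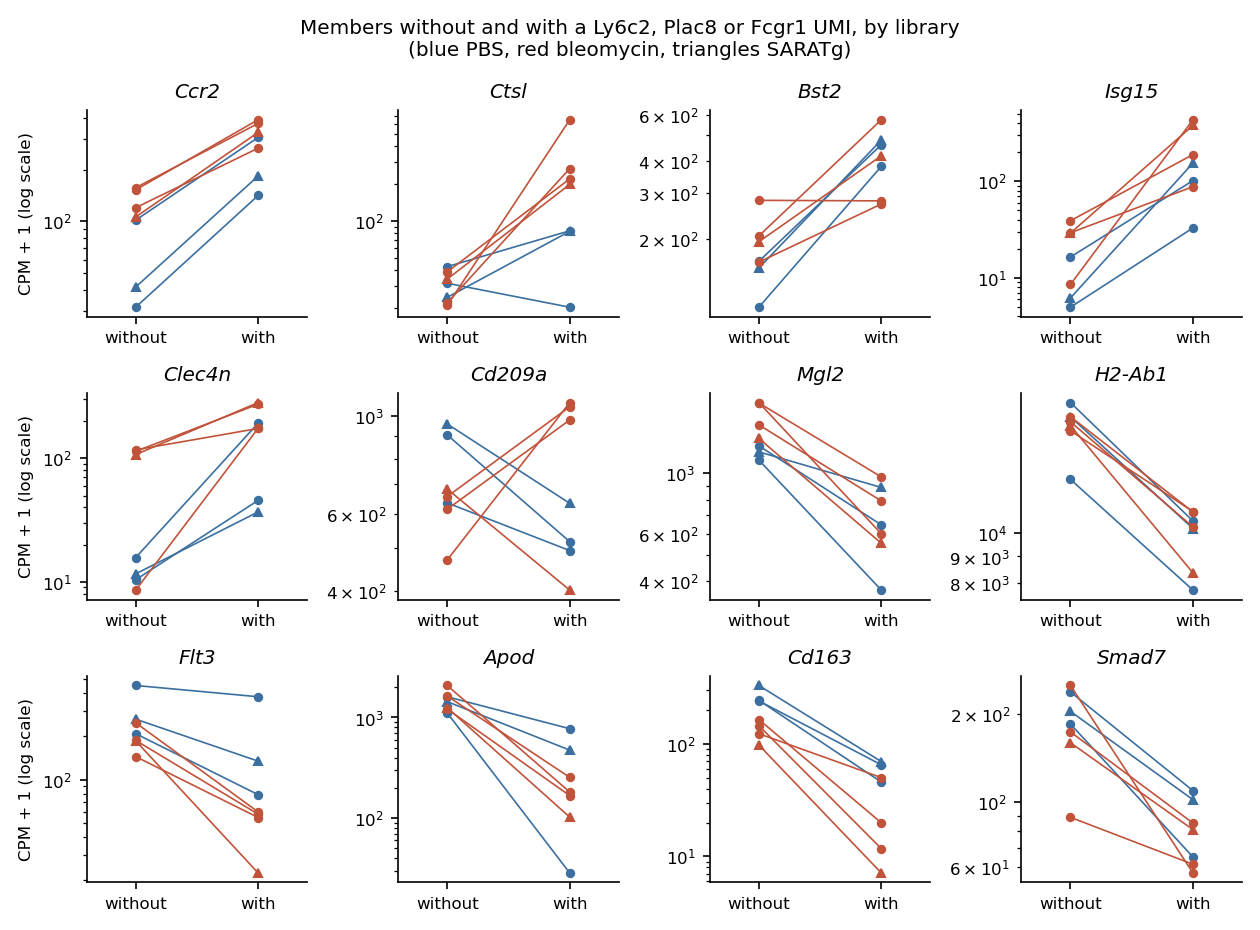
Level of 12 genes (CPM plus 1, log scale) in members without and with a Ly6c2, Plac8 or Fcgr1 UMI, with a line for each of 7 libraries (blue PBS, red bleomycin, triangles SARATg). Ccr2, Isg15 and Clec4n go up and Mgl2, H2-Ab1, Flt3, Apod, Cd163 and Smad7 go down along every line, and Cd209a goes both ways.

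The 65 members set aside are given by their shares. Members with a Siglech or Ccr9 UMI were 2.23%, 2.94%, 12.8% and 1.83% of members in the PBS libraries and 5.00%, 7.84%, 8.78% and 8.65% in the bleomycin libraries (SARAWT 1 to 3, then SARATg), so the treatments overlapped through SARAWT PBS 3. In the 4 libraries with at least 10 of them, Spib, a factor of plasmacytoid cells, was at 7.89, 180, 1084 and 5.47 CPM (SARAWT PBS 1, SARAWT PBS 3, SARAWT bleomycin 3 and SARATg PBS), so it was high in 2 of the 4, against 7.57 ± 6.02 and 5.22 ± 2.71 CPM in the members with and without a monocyte-gene UMI.

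The effect of bleomycin on the members as a whole was tested first in the 6 SARAWT libraries. With summed UMIs and edgeR's quasi-likelihood test, 0 of 7414 genes (0%) passed an adjusted p of 0.05, while DESeq2 called 58, and 877 genes passed 0.05 before adjustment. In simulated counts, where the changed genes all moved by the same fold, this edgeR fit recovered 0.529% of 2-fold and 84.2% of 4-fold changes. These rates need not hold in the real libraries, where some genes with fitted changes above 4-fold, listed next, were not called. The 0 calls thus say little on changes of either size. The genes of smallest p on the high side were Klrk1, Gm9733, Ctsl, Ms4a4c, Ckb, Ly6e, Clec4n and Nrg1 (log2 differences 4.01, 4.49, 2.46, 2.395, 1.81, 1.59, 2.65 and 3.18), and on the low side Mt2, Cd163, Scd1, Tfrc, Tuba4a, Ube2c, Cd81 and Ddhd1 (-2.75, -1.77, -1.52, -1.77, -1.67, -2.60, -1.66 and -1.25). Their adjusted p-values by edgeR were 0.197 to 0.215. Without SARAWT PBS 3, 38 genes were called, and without SARAWT PBS 2, 15.

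Over all 8 libraries with genotype as a term, 15 of 9024 genes passed, 13 higher (0.144%) and 2 lower (0.0222%) after bleomycin. The count was 0 with any 1 of 6 libraries left out (SARAWT PBS 1, SARAWT bleomycin 1, 2 or 3, SARATg PBS or SARATg bleomycin), 10 without SARAWT PBS 2 and 413 without SARAWT PBS 3, so these calls depend on the number of libraries and on single ones. With no genotype term 95 genes were called, all 15 among them. In all 15 the 4 bleomycin libraries lay on 1 side of the 4 PBS libraries, as they did upward for 6.86% and downward for 5.27% of all genes tested. Below, the 4 values of a treatment are in the order SARAWT 1, 2, 3 and SARATg, in CPM.

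Ctsl, which degrades proteins in lysosomes and helps to process the invariant chain, was at 30.3, 21.9, 77.9 and 28.6 after PBS and 228, 305, 236 and 165 after bleomycin. The highest PBS library was SARAWT PBS 3, still below every bleomycin library, and the log2 change was 2.48 ± 0.33 (SE; edgeR adjusted p = 0.0389). In the members without a Ly6c2, Plac8 or Fcgr1 UMI, where none of the 15 passed, Ctsl overlapped at 19.5 to 41.5 after PBS and 19.8 to 37.8 after bleomycin, and in the SARAWT libraries its log2 change turned to -0.49 (edgeR adjusted p = 0.942). Clec4n (Dectin-2), a lectin that binds fungal mannans, was at 10.5, 14.6, 41.5 and 11.8 after PBS and 127, 128, 180 and 141 after bleomycin, with SARAWT PBS 3 again the highest of its group (2.91 ± 0.41, adjusted p = 0.0389). Ccl17, a chemokine that draws type 2 T cells, was at 0, 3.64, 1.15 and 0 after PBS and 9.65, 8.67, 53.1 and 132 after bleomycin. Its fitted log2 change of 7.61 ± 1.17 (edgeR adjusted p = 0.0466) depends on the prior count, since each PBS library held at most 2 UMIs, and the bleomycin libraries themselves differed widely.

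The other genes that rose belong to several families. Klrk1, the receptor NKG2D, was at 1.58, 10.9, 4.61 and 2.02 after PBS and 81.1, 54.9, 38.3 and 14.9 after bleomycin, and SARATg bleomycin was the lowest of its group. Ms4a6b, a membrane protein of the Ms4a family, was at 7.11, 14.6, 28.3 and 8.86 against 205, 96.8, 85.2 and 60.3. Lgals3bp, a secreted galectin ligand, was at 7.63, 18.2, 16.7 and 14.4 against 116, 57.8, 50.0 and 93.2, and Slfn5, an interferon-responsive Schlafen gene, at 11.8, 14.6, 17.9 and 8.39 against 203, 50.5, 68.4 and 68.1. For Ms4a6b, Lgals3bp and Slfn5 SARAWT bleomycin 1 was the highest library. The remaining genes that rose were Gm9733 (log2 change 4.88), Cd300lf (3.95), Mcemp1 (2.33), Tcirg1 (2.24), Ckb (1.78) and Igsf8 (1.42).

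The 2 genes that fell were Cd163 and Scd1. Cd163, the haemoglobin scavenger receptor, was at 230, 339, 189 and 313 after PBS and 44.4, 96.8, 77.1 and 63.4 after bleomycin (log2 change -1.90 ± 0.27, edgeR adjusted p = 0.0389). Scd1, which desaturates fatty acids, was at 123, 87.4, 98.0 and 160 against 32.8, 26.0, 48.5 and 47.0 (-1.58 ± 0.22, adjusted p = 0.0389). In both, the libraries of a treatment stayed close together. On GRCm38 (GENCODE vM21), Cd163 lies at chr6:124304656-124330527 and Clec4n in the lectin cluster of the same chromosome at chr6:123229843-123247021, while Ctsl lies at chr13:64359337-64370890 and Ccl17 at chr8:94810453-94812036.

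**Figure D4:**
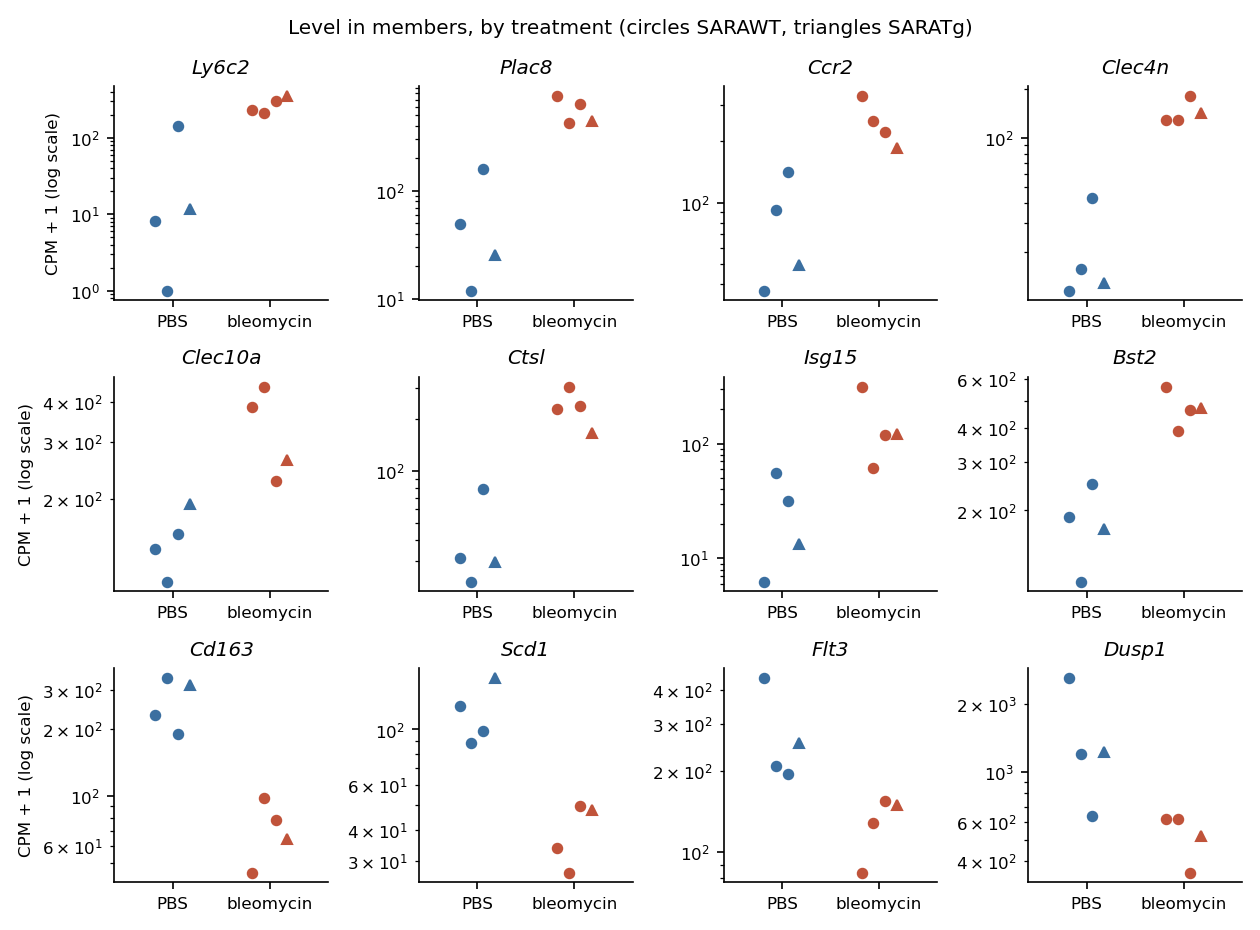
Level of 12 genes in members (CPM plus 1, log scale) by treatment, 1 point per library, with circles for SARAWT and triangles for SARATg. In each panel the 4 bleomycin libraries lie on 1 side of the 4 PBS libraries, above for Ly6c2 to Bst2 and below for Cd163 to Dusp1.

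Among the monocyte and macrophage genes, 13 of 16 listed were tested and 6 lay above in all 4 bleomycin libraries, with 1, Cd163, below (background 6.86% and 5.27%), and a median log2 change of 0.49 against -0.02 over all genes. Plac8 was at 47.9, 10.9, 160 and 24.6 after PBS and 760, 422, 632 and 440 after bleomycin, and Ly6c2 at 7.11, 0, 141 and 10.7 against 232, 209, 303 and 355. In both the library labelled SARAWT PBS 3 stood between its group and the bleomycin libraries. Fcgr1, the high-affinity IgG receptor, was at 0.527 to 6.92 against 26.0 to 67.5 CPM, Ccr2 at 36.1 to 141 against 185 to 334 CPM and Apoe at 346 to 487 against 579 to 609 CPM. Of the genes named here, none but Cd163 passed an adjusted p of 0.05 (Plac8 0.0574 and Fcgr1 0.0563 by edgeR). Of the 8 genes listed for Mmp12 Ear2 and Chil3 cells, Ly6c2 and Plac8 were the 2 apart and made up most of the list's sum in the bleomycin libraries (36.4 to 333 CPM after PBS and 663 to 1025 after bleomycin), while Mmp12 and Ear2, capped by the rule, overlapped at 3.64 to 12.1 against 5.79 to 11.7 CPM and 4.74 to 19.6 against 5.61 to 25.1 CPM. The 10 macrophage markers summed to 285 to 412 and 201 to 342 CPM.

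Of 14 genes tested in the list of C-type lectin receptors, the family of Cd209a and Mgl2, 6 were above in all 4 bleomycin libraries and 1 below (6.86% of all genes above and 5.27% below). The 1 below was Cd44, a hyaluronan receptor and not a lectin of that family. The list had a median log2 change of 0.99. Clec10a (CD301a), the close relative of Mgl2 encoded beside it on chromosome 11, was at 138, 109, 154 and 192 after PBS and 386, 446, 226 and 264 after bleomycin. Cd209d was at 337 to 444 against 527 to 866 CPM, and Clec4a1, Clec4a2 and Clec4a3, receptors of the DCIR group, at 61.6 to 83.8, 48.7 to 98.4 and 36.9 to 109 against 96.5 to 124, 138 to 235 and 123 to 199 CPM. Cd209e overlapped between treatments, with 522 to 1611 after PBS and 276 to 555 CPM after bleomycin. Of the 14, only Clec4n passed an adjusted p of 0.05 over 8 libraries.

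Interferon-stimulated genes, which cells switch on through STAT and IRF factors after type I or II interferon, had the largest median of the lists that describe the members. Of 18 listed, 17 were tested and 7 were above in all 4 bleomycin libraries with none below (6.86% of all genes above and 5.27% below), and the median log2 change was 2.95. Isg15 was at 5.27, 54.7, 30.6 and 12.3 after PBS and 313, 60.7, 117 and 121 after bleomycin, so SARAWT PBS 2 and SARAWT bleomycin 2 came close. Bst2 (tetherin), which holds budding virus at the cell surface, was at 188, 109, 249 and 171 against 562, 389, 461 and 471. Bst2 is a marker of plasmacytoid cells too, and the part of members with Siglech or Ccr9 UMIs in its level was not tested. Irf7, an amplifier of interferon transcription, was at 4.48 to 29.4 against 49.1 to 316 CPM, Oas1a at 0 to 5.00 against 14.1 to 71.4 CPM, Ifi44 at 0 to 0.577 against 4.33 to 21.2 CPM, Zbp1 at 12.7 to 18.2 against 25.01 to 77.2 CPM and Ly6a at 3.64 to 52.5 against 113 to 415 CPM. The summed list was 302 to 455 CPM after PBS and 830 to 2742 CPM after bleomycin, with SARAWT bleomycin 1 the highest. None of the 17 passed an adjusted p of 0.05 (Bst2 0.0575 and Ifi44 0.0576 by edgeR).

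The promoter windows of this list are shown because 7 of its genes lay above in all 4 bleomycin libraries. The interferon-stimulated response element is read by STAT and IRF factors, and its core GAAANNGAAA (either strand, overlapping matches counted) was found in the window of 8 of the 13 listed genes that had one (3.99% of all 27025 genes with a window), from 250 bases before to 50 after the start in RefSeq (GRCm38.p6). Stretches of 3 genes that lay above in all 4 bleomycin libraries follow, read on the gene's strand, with matched bases in capitals.
Isg15 (chr4:156200857-156200926, minus strand): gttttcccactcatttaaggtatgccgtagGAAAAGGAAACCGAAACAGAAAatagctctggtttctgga
Bst2 (chr8:71537563-71537632, minus strand): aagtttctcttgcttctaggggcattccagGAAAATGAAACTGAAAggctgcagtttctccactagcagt
Oas1a (chr5:120907526-120907575, minus strand): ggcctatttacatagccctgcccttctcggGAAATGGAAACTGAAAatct

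Isg15 held 3 overlapping matches beginning 78 bases before its start, and Bst2 and Oas1a 2 each, at 130 and 20 bases. The windows of Irf7 and Ifi44, which lay above in all 4 bleomycin libraries too, held no match. Those of Cxcl10, Gbp2, Ifit1, Ifit3 and Rsad2 held matches, though these genes did not lie above in all 4. The list is of known interferon-stimulated genes, so its share of matches follows from the list and tells nothing of the members. A match is a string of letters in this window and no binding was measured.

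Genes of the immediate early response, which also follow tissue digestion, were counted as a list. Of 20 tested, 9 were below in all 4 bleomycin libraries and none above (background 5.27% and 6.86%), with a median log2 change of -0.58. Dusp1, a phosphatase that shuts off stress kinases, was at 2604, 1199, 638 and 1221 after PBS and 614, 614, 356 and 520 after bleomycin, so SARAWT PBS 3 nearly met the bleomycin libraries. Zfp36, which destabilises cytokine mRNA, was at 1689, 1220, 1033 and 1466 against 662, 914, 730 and 636. Fosb, Fosl2, Jund, Egr1, Nr4a1, Hsp90aa1 and Dnajb1 were the others. Of 12 NF-κB feedback genes, Nfkbia, Nfkbiz, Relb and Tnfaip3 lay below in all 4 and none above (median -0.42), with Tnfaip3, the deubiquitinase A20, at 315 to 481 after PBS and 192 to 223 CPM after bleomycin (edgeR adjusted p = 0.0574). None of these genes passed an adjusted p of 0.05. These genes respond to cell handling, and the part of tissue digestion in their levels was not tested. The 10 keratinocyte genes listed summed to 517 and 777 CPM in SARAWT PBS 1 and 3, 230 in SARATg PBS, 137 in SARATg bleomycin and 4.33 to 15.4 in the other 4, and 10 stromal genes to 315 to 3992 CPM with overlap between treatments.

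Of 12 dendritic cell core genes, 2 were above and 2 below in all 4 bleomycin libraries (6.86% of all genes above and 5.27% below). Flt3 was at 443, 208, 194 and 254 after PBS and 83.0, 127, 155 and 149 after bleomycin, and Zbtb46 at 46.6, 61.9, 42.7 and 59.2 against 27.0, 40.4, 30.6 and 25.8. Both groups were apart, with log2 changes of -1.10 ± 0.29 and -0.74 ± 0.23 (edgeR adjusted p = 0.105 and 0.137). Irf8 lay the other way at 16.3, 0, 48.4 and 12.7 against 57.9, 75.1, 131 and 60.3, and Dpp4 at 19.7 to 28.3 against 40.7 to 49.1 CPM. Irf4 overlapped, with 92.9 to 166 after PBS and 36.7 to 95.3 CPM after bleomycin. Klf4, needed for type 2 responses of dendritic cells, was at 634 to 1798 against 453 to 629 CPM. Of 10 genes tested in the class II presentation list, 1 was apart, above (6.86% of all genes), and this was Cd52, a leukocyte surface glycoprotein with no part in presentation, so none of the other 9 was apart. Of class I genes, 3 of 12 class I genes, H2-T23, Psmb8 and Psmb9, were above in all 4 (median 0.30).

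Of 15 chemokines, 2, Ccl17 and Ccl2, were above and 1, Ccl4, below in all 4 bleomycin libraries (6.86% of all genes above and 5.27% below). Ccl2, which draws monocytes, was at 30.02, 10.9, 24.2 and 9.95 after PBS and 42.5, 92.4, 133 and 86.9 after bleomycin, and Ccl4 at 99.8 to 434 against 25.1 to 89.5 CPM. Of 11 cytokines, Il18 was below, at 114 to 237 against 82.3 to 96.5 CPM, and Il12b had no UMI in any library, each with the floor given above. Of 14 genes of the type 2 and alarmin response, Crlf2, the receptor chain for thymic stromal lymphopoietin, was at 52.9, 69.2, 68.1 and 55.2 after PBS and 147, 96.8, 111 and 101 after bleomycin, and Il2rg was above and Klf4 below as well. Retnla, a type 2 induced gene, was at 31.6 to 530 CPM after PBS and 79.1 to 528 after bleomycin, with full overlap. The other lists are given beside the same background of 6.86% above and 5.27% below, and nothing is read from single genes among them. Of these lists, p53 targets had 1 gene apart (Sesn2, below) among 11, proliferation 1 (Ube2c, below) among 16, galectin and matrix-related genes 1 (Adam8, below) among 16, lipid and lysosome genes 3 above (Apoe, Ctsl and Cd68) among 14, mature dendritic cell genes 2 below (Marcks and Relb) among 10, and the sensors none among 10. Costimulation genes had Cd40 above and Havcr2 below among 11, chemokine receptors Ccr2 above among 6, type 2 dendritic cell genes Clec10a and Clec4a2 above and Klf4 and Relb below among 14, and type 1 genes Irf8 and Ifi205 above among 7. Markers of other cells summed over 8 libraries to 3.86 to 161 CPM for T cells, 122 to 884 for neutrophils, 0 to 113 for mast cells, 36.7 to 138 for endothelium, 0 to 8.95 for red cells and 18.6 to 266 for Langerhans cells, each with overlap between treatments.

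The lists were also counted without the library labelled SARAWT PBS 3, an alternative chosen after the values were seen. This PBS library stood nearest the bleomycin libraries in member share, Plac8 and Ly6c2, so leaving it out favours more calls and the counts are a description. Leaving out any library other than SARAWT PBS 2 or 3 gave 0 calls. Without SARAWT PBS 3, 11.3% of all genes lay above and 10.1% below in all 4 bleomycin libraries. In that fit 3.07% and 1.80% passed an adjusted p of 0.05 as higher and lower. There 6 of 16 interferon-stimulated genes passed as higher (Isg15, Irf7, Oas1a, Bst2, Ifi44 and Ly6a) and 0 as lower. Of 13 monocyte and macrophage genes 6 passed as higher and 2 as lower, and of 14 C-type lectin receptors 5 as higher (Clec4a2, Clec4n, Clec12a, Clec4d and Cd209d) and 1, Cd209e, as lower. Of 13 chemokines 5 passed as higher and 1 as lower, of 20 immediate early genes 5 as lower (Fosl2, Atf3, Dusp1, Zfp36 and Hsp90aa1), of 12 NF-κB feedback genes Tnfaip3 as lower, and of 11 dendritic cell core genes Itgax, Irf8 and Dpp4 as higher and Flt3 as lower. Of 10 class II presentation genes Cd74 passed as lower, and of 10 mature dendritic cell genes Fscn1 and Marcks as lower. Of 6 chemokine receptors Ccr1, Ccr2 and Cxcr4 passed as higher, and of 9 sensors Tlr2 and Tmem173. Some other lists also held called genes. Of 4 neutrophil genes 2 passed as higher, S100a8 and S100a9, which over the 8 libraries were at 1.05, 0, 67.5 and 0.311 CPM and 0.79, 0, 158 and 0.466 CPM after PBS and 0, 0, 36.8 and 219 CPM and 3.86, 0, 147 and 491 CPM after bleomycin, so nearly all of their UMIs after bleomycin came from 2 libraries and after PBS from SARAWT PBS 3. Of 3 endothelial genes Cdh5 passed as higher, at 0 to 3.46 CPM after PBS and 7.66 to 21.7 after bleomycin, and the part of such cells or their RNA in these calls was not tested. Statements above that genes of these lists did not pass refer to the fit over 8 libraries.

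These differences were measured again in the 1270 members (84.9%) without a Ly6c2, Plac8 or Fcgr1 UMI, whether or not they held Siglech or Ccr9 UMIs. Those left were 82.4% to 97.1% of the members of the PBS libraries and 40.0% to 67.3% of those of the bleomycin libraries. Then 4 of the 13 genes that rose and 1 of the 2 that fell over 8 libraries were still without overlap, as were 2 of the 7 interferon-stimulated genes, Oas1a and Zbp1. Of all 9024 genes 2.75% lay above and 3.54% below in all 4 bleomycin libraries in these members, against 6.86% and 5.27% in all members, and since the named genes were chosen for having no overlap in all members nothing is read from their counts. The fit over 8 libraries called 0 genes there, with as few as 16 members in a library. Members without Siglech or Ccr9 UMIs gave 21 calls, 14 of them among the 15.

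Smad7, the inhibitor that TGF-β signalling induces against itself, was the 1 gene of 10535 (0.00949%) that passed for a bleomycin effect that differed between members and C1q macrophages (edgeR term of class by treatment). The count was 44 with DESeq2, 322 with no filter on low counts and 161 without SARAWT PBS 3, Smad7 among them each time, so other genes are not shown to have the same effect in both. In members it was at 227, 189, 154 and 198 CPM after PBS and 106, 78.0, 122 and 135 after bleomycin, without overlap. In C1q macrophages it was at 30.2, 33.4, 31.1 and 34.0 CPM after PBS and 91.3, 64.8, 89.3 and 75.8 after bleomycin. Members were higher than C1q macrophages of the same library in all 8 libraries, by a smaller gap in each bleomycin library than in any PBS library. In SARAWT libraries the log2 change was -0.90 ± 0.25 in members (adjusted p = 0.283) and 1.47 ± 0.22 in C1q macrophages (adjusted p = 0.0398, with 0.39% of genes called higher and 0.146% lower there), and the difference was -2.38 ± 0.25 (adjusted p = 0.0207 by edgeR, 4.47e-11 to 0.215 over the alternatives). The call was lost when any 1 library except SARAWT PBS 3 was left out and when doublets were left out, and the sign never turned. Smad7 was also at 79.1 ± 20.3 CPM in members with a monocyte-gene UMI and 185 ± 54.1 in those without, and the part of that split in its level was not tested.

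**Figure D5:**
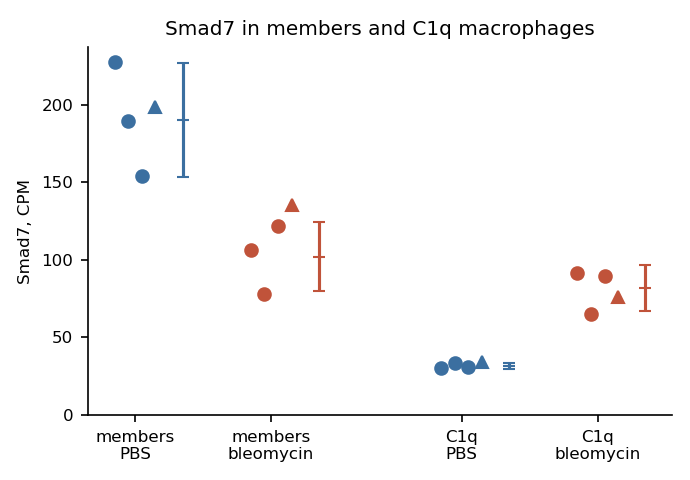
Smad7 (CPM) in members and C1q macrophages after PBS (blue) and bleomycin (red), 1 point per library with triangles for SARATg, and bars for the mean and SD of the 3 SARAWT libraries. Members lie between 154 and 227 after PBS and 78.0 and 135 after bleomycin, and C1q macrophages between 30.2 and 34.0 and 64.8 and 91.3.

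Of the other TGF-β and retinoid genes, none of 11 was apart between treatments. Tgfb1 was at 193 to 266 CPM after PBS and 175 to 244 CPM after bleomycin, and Tgfbr1, the type I receptor, at 8.08 to 20.2 and 10.1 to 25.5 CPM. The effect of the transgene was not tested.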

How the data were processed

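The deposited values are UMI counts per gene and cell, which the authors made with Cell Ranger against mm10 (version 3.0.2 in the submitters' processing notes, 3.1.0 or 4.0.0 in the skin file headers; Seurat 2.3.4 is also listed). The 8 skin libraries were used and the 9 kidney libraries were not analysed here. The 30406 genes shared by both gene lists were kept. Cells were chosen by the rule in the text, counts were summed per library and class, and sums were tested with edgeR 4.0.16 (TMM, filterByExpr, quasi-likelihood, Benjamini-Hochberg at 0.05), with DESeq2 1.42.0 as an alternative, in R 4.3.3, after tests on simulated counts. Classes were compared with library as a block. Shares were compared by exact permutation in scipy 1.17.1. Doublets were marked with scanpy 1.11.5 (Scrublet, 0.8% expected per 1000 cells) and left out as an alternative. Levels are CPM of summed UMIs, so fewer positive cells and less RNA per cell cannot be told apart. Thinning was 1 random draw. Summed depth sets the precision, from 274492 to 6434481 member UMIs per library.

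Named genes were up to 8 per direction with the largest log2 change past the threshold, no overlap of groups (or the same sign in every library) and a mean of at least 20 CPM in the higher group, filled to 8 by smallest p as values only, with fixed markers and the members of 33 gene lists. Some genes of these lists are counted but not reported here by name. The members and lists were chosen with earlier results of these data known.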

Additional observations from a re-analysis of the deposited data

Results flagged for a closer look

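The bleomycin effect on Smad7 differed between members and C1q macrophages by -2.38 on the log2 scale (edgeR, class by treatment, adjusted p = 0.0207), which is a difference between 2 cell classes under the same contrast.

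Reads assigned to a human ZFYVE9 entry, which exists in the longer gene list and was used in no comparison, were present in members of 4 libraries labelled SARAWT, which should lack the transgene. They stood at 740.6 CPM in SARAWT PBS 1, 196.7 CPM in SARAWT PBS 2, 127.4 CPM in SARAWT bleomycin 1 and 82.32 CPM in SARAWT bleomycin 2, and the source of these UMIs was not tested.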

How the results depend on the processing

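In the 6 SARAWT libraries 0 genes were called, and the count was 58 with DESeq2, 461 with no filter on low counts, 0 to 38 with 1 library left out (15 without SARAWT PBS 2 and 38 without SARAWT PBS 3), 10 with the replicate block, 15 over all 8 libraries with genotype as a term, and 7 without SARAWT PBS 1 and 3. That last alternative and those of the fit over 8 libraries were chosen after seeing the data. Over 8 libraries the 15 calls became 0 to 413 with 1 library left out, 96 with the gene list as a further term, 95 with no genotype term, 478 with DESeq2 and 0 without the members that held Ly6c2, Plac8 or Fcgr1 UMIs. Without those members, with as few as 16 left in a library, Ctsl in the SARAWT libraries turned to -0.49 (edgeR adjusted p = 0.942). Of 558 alternatives over 26 genes of the bleomycin comparison, taken 1 gene at a time, 482 were the same, 75 stronger and 1 reversed. No gene passed in the fit to the 6 SARAWT libraries, so none could become weaker. The 482 counted as the same therefore give no support to a change. The single call between members and C1q macrophages became 44 with DESeq2, 322 with no filter, 0 to 161 with 1 library left out (161 without SARAWT PBS 3) and 0 with doublets left out. Against Ccr7 cells 2457 genes were called, 1080 with no replicate block and 1180 in SARAWT libraries alone. The share difference of -3.86 points kept its sign throughout, from -1.37 to -5.52 with 1 library left out, and in the paired test, the replicate block, the exact sign-flip p was 0.25, the smallest possible. Replicate numbers were used only as names of libraries, though among the SARAWT libraries they also follow the gene list. Deviations from the group means correlated at -0.019, 0.0707 and 0.267 for the 3 numbers and at -0.265 to 0.184 for pairs of unlike number. The highest was the pair of SARAWT PBS 3 and SARAWT bleomycin 3, which share the shorter gene list. The causes were not tested. With 34 members in SARAWT PBS 2, a gene under 10.9 CPM there rests on fewer than 3 UMIs.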
